A study of Rangifer tarandus with 4 samples.

Results

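The chemokine ligand genes are the 33 protein-coding genes of the deposited cattle annotation whose symbol is CCL, CXCL, XCL or CX3CL followed by a number. They were found by that symbol rule alone among the 21861 protein-coding genes of the 21880 genes listed. They are 19 CC genes (CCL), 12 CXC genes (CXCL), XCL1 and CX3CL1. The study profiled blood mononuclear cells of reindeer (Rangifer tarandus) at day 3 after a wound, as single-cell 3′ RNA libraries, with 2 libraries of venous blood from the distal antler velvet and 2 from the saphenous vein, which the labels call back. About 12000 cells were loaded for each library. No genotype, age or sex is given in the sources used here, and cell counts were not analysed here. The gene models described below are those of cattle (assembly ARS-UCD1.2), with positions counted from 1, and reindeer coordinates were not used here.

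Chemokines are small secreted proteins that attract leukocytes along concentration gradients, and the families are named for the spacing of the first cysteines in the mature protein. In CC chemokines these cysteines are adjacent, in CXC chemokines 1 residue lies between them, XC chemokines lack a pair of the usual cysteines, and CX3CL1 carries a chemokine domain on a mucin-like stalk. They act on receptors with several membrane-spanning helices, on monocytes, neutrophils, lymphocytes, eosinophils and dendritic cells. The roles given below are known mainly from human and mouse, and are background to the gene models. In 3′ libraries reads come mainly from the end of a transcript, so the 3′ untranslated region (UTR) of a model bears on where such reads can be assigned.

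The 33 genes lay on 10 assembled chromosomes, and no symbol was carried by more than 1 of them. Chaining genes less than 500 kb apart gave 7 clusters of at least 2 genes with 24 members, and 9 members stood alone. Of the CC genes 16 of 19 were in clusters, against 7 of 12 CXC genes. The share of other gene families in such clusters was not computed. With GRO1 added, a CXC gene under another symbol that is described below, 25 genes were in clusters. None of the 7 clusters held both CC and CXC genes, and CX3CL1 was the only gene of another family in a cluster. The distances did not come near the 500 kb limit. Measured from the furthest end of the members already joined, the largest distance bridged inside a cluster was 112.6 kb, between CXCL2 and CXCL3, and the smallest left unbridged was 1.27 Mb, between the clusters on chromosome 19.

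**Figure D1:**
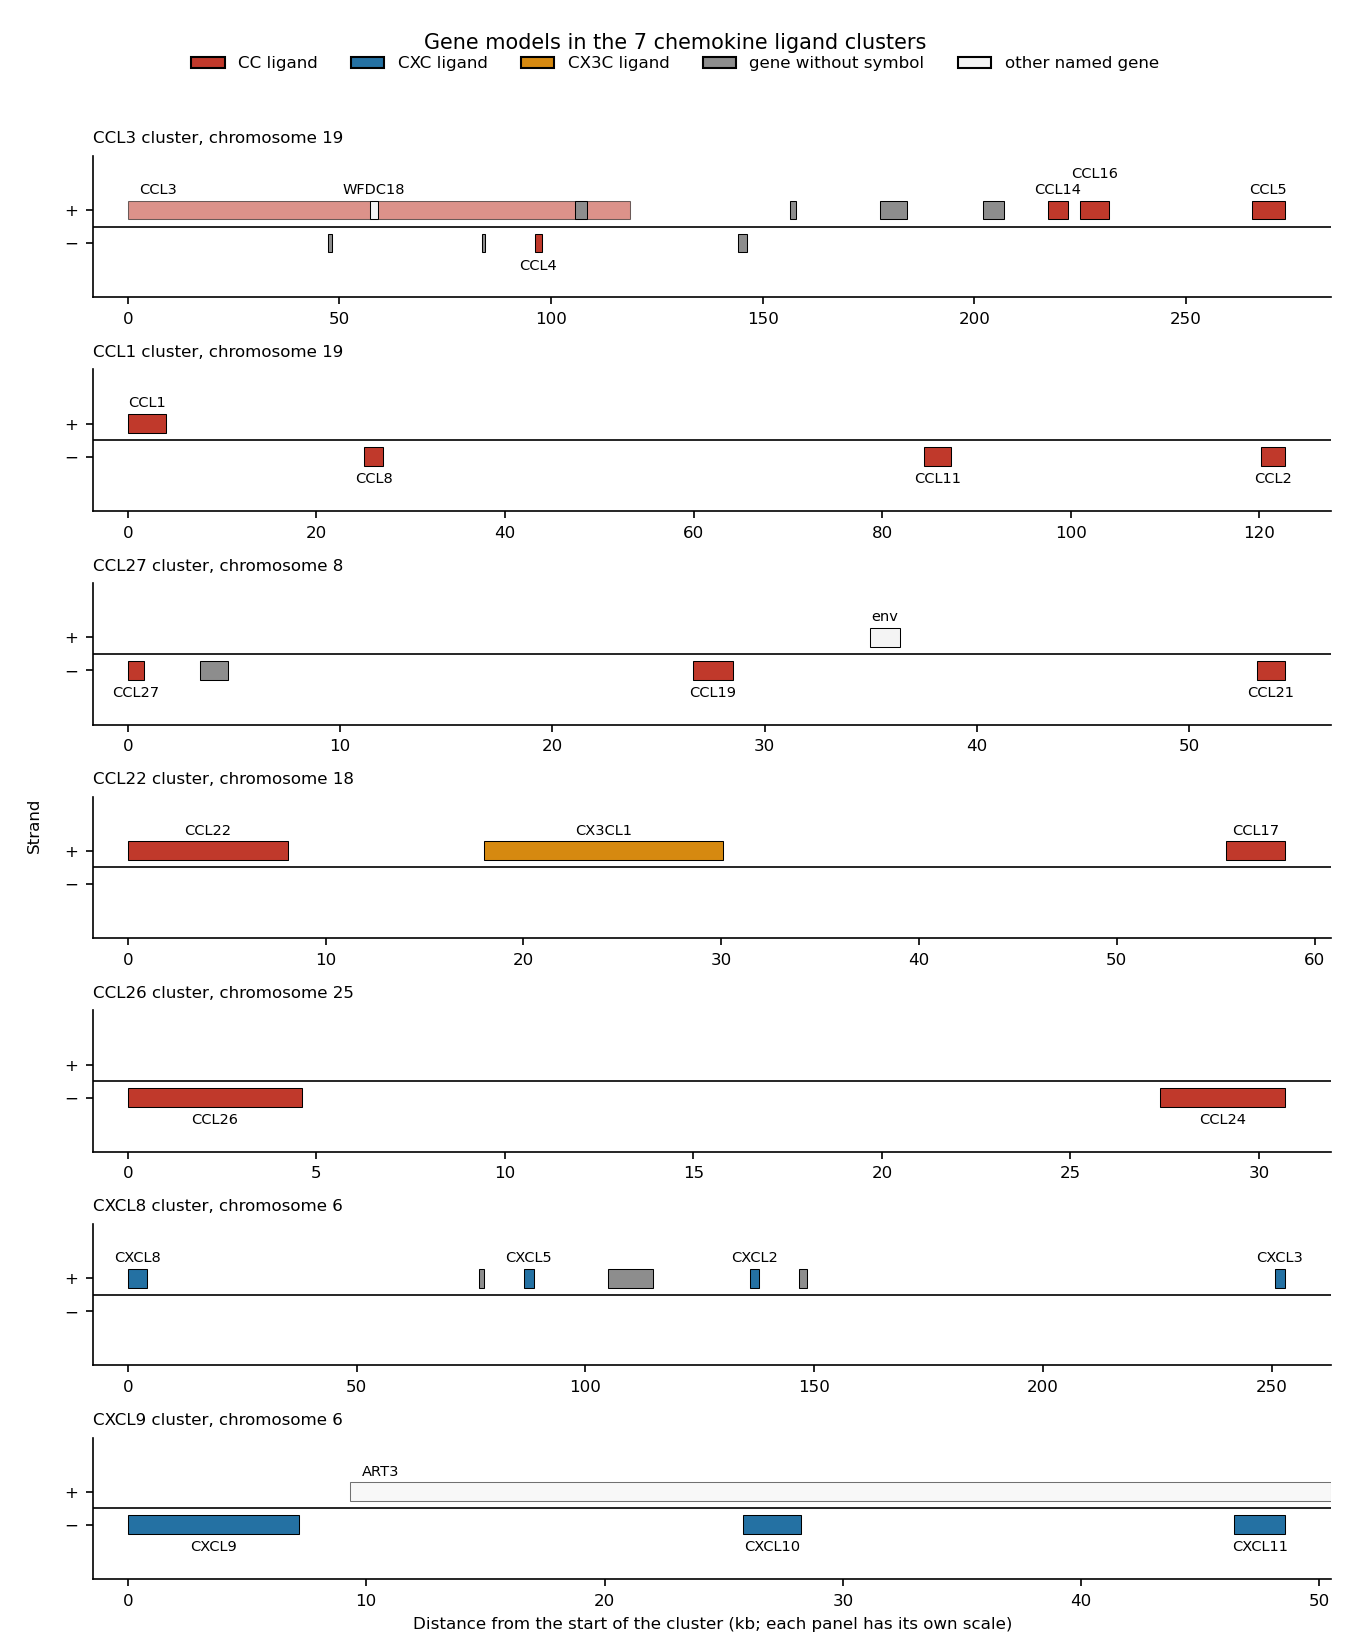
Gene models in the 7 clusters, drawn by distance from the start of each cluster in kb, with the plus strand above the line and the minus strand below it; CC genes are red, CXC genes blue, CX3CL1 orange, genes without a symbol grey and other named genes white. The span of CCL3 covers CCL4, 3 unnamed genes and WFDC18, 7 of the 11 unnamed genes lie in the CCL3 cluster, and ART3 runs on past the end of its panel.

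The largest CC cluster spanned 273.4 kb of chromosome 19 (14243466 to 14516896) and held 5 members. CCL3 (14243466 to 14362161, plus strand), CCL4 (14339700 to 14341265, minus strand) and CCL5 (14508970 to 14516896, plus strand) encode inflammatory attractants of T cells and monocytes. CCL14 (14460812 to 14465640, plus strand) and CCL16 (14468439 to 14475253, plus strand), whose products circulate in human plasma, lay 2.8 kb apart and were the closest pair of members that were not nested. CCL4 lay within the annotated span of CCL3 on the opposite strand, the only nested pair. That span depended on a single transcript of CCL3. The transcript of 118.7 kb has 372 coding bases and an intron of 82832 bases, whereas the other transcript spans 1.98 kb with 375 coding bases. Without the long transcript CCL4 would lie outside CCL3. The cluster length and the other genes counted inside the cluster also use that long span, and both were not recomputed without it.

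A second CC cluster on chromosome 19 spanned 122.7 kb (15782652 to 15905368) and held 4 genes and no other protein-coding gene. CCL1 (15782652 to 15786668), a ligand of CCR8, was on the plus strand. The others were on the minus strand. CCL8 (15807710 to 15809743) and CCL2 (15902777 to 15905368) encode monocyte attractants, and CCL11 (15867084 to 15869981) encodes an eosinophil attractant. Their coding segments were close to identical in length. The 3 coding exons held 76, 118 and 103 bases in CCL8 and in CCL2, 76, 112 and 103 bases in CCL11, and 76, 115 and 88 bases in CCL1.

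The other CC clusters were smaller. On chromosome 8, CCL27 (76027403 to 76028140), CCL19 (76054024 to 76055932) and CCL21 (76080584 to 76081928) lay within 54.5 kb, all on the minus strand. CCL19 and CCL21 are the ligands of CCR7, which guides lymphocytes and dendritic cells into lymph nodes, and CCL27 attracts skin-homing T cells through CCR10. On chromosome 18, CCL22 (25365218 to 25373329), CX3CL1 (25383236 to 25395288) and CCL17 (25420716 to 25423723) lay within 58.5 kb on the plus strand with no other gene among them. CCL17 and CCL22 are ligands of CCR4, and CX3CL1 is the membrane-bound ligand of CX3CR1. On chromosome 25, CCL26 (34038531 to 34043143) and CCL24 (34065905 to 34069221), which attract eosinophils through CCR3, lay within 30.7 kb on the minus strand.

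Both CXC clusters were on chromosome 6. The first spanned 252.9 kb (88810418 to 89063360) and held neutrophil attractants that act on CXCR2, all on the plus strand. CXCL8 (88810418 to 88814572) came first, followed by CXCL5 (88897012 to 88899124), CXCL2 (88946402 to 88948465) and CXCL3 (89061093 to 89063360). The second began 1.79 Mb further on, spanned 48.6 kb (90856295 to 90904851) and held the interferon-induced ligands of CXCR3, all on the minus strand. These were CXCL9 (90856295 to 90863481), CXCL10 (90882124 to 90884526) and CXCL11 (90902720 to 90904851). CXCL10 and CXCL11 lay inside the span of ART3 (90865633 to 91007790) on the opposite strand, with no exon base shared. CXCL13 (92284631 to 92291191, plus strand), which draws B cells into follicles through CXCR5, lay a further 1.38 Mb away and therefore stood alone.

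Within clusters, members mostly ran in one direction. Of the 17 pairs of neighbouring members 14 were on the same strand, against 50.9% of 20944 pairs of adjacent protein-coding genes less than 500 kb apart. The 2 counts are not built alike, because other genes may lie between neighbouring members. Every member of 5 of the 7 clusters was on a single strand, and the exceptions were the CCL3 and CCL1 clusters with 1 gene each on the other strand. The 16 pairs that were not nested lay 2.8 to 119.5 kb apart, with a median of 25.7 kb, and in 10 of them no protein-coding gene lay wholly between. The widest pair was CCL4 and CCL14, and from the end of the long span of CCL3 the distance to CCL14 was 98.7 kb.

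The 9 members that stood alone were 3 CC genes, 5 CXC genes and XCL1. CCL20 (chromosome 2, 115948258 to 115951955, plus strand) encodes the ligand of CCR6, CCL25 (chromosome 7, 16776216 to 16779697, plus strand) that of CCR9 in thymus and gut, and CCL28 (chromosome 20, 31371360 to 31400007, plus strand) a mucosal ligand of CCR10. Besides CXCL13, the CXC genes alone were CXCL14 (chromosome 7, 47070286 to 47078939, minus strand), which is expressed in skin, CXCL17 (chromosome 18, 51500305 to 51506901, minus strand), which is expressed in mucosa, and the following pair. CXCL16 (chromosome 19, 26615705 to 26620061, plus strand) encodes the membrane-bound ligand of CXCR6. CXCL12 (chromosome 28, 45022356 to 45051627, plus strand) encodes the ligand of CXCR4 that retains blood stem cells in bone marrow. XCL1 (chromosome 16, 36163970 to 36167373, plus strand) encodes an attractant of XCR1-bearing dendritic cells.

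CC and CXC genes differed in how many exons carry the coding sequence. In the transcript with the longest coding sequence, 14 of 19 CC genes had 3 coding exons, against 1 of 12 CXC genes. Exactly 4 coding exons were found in 4 of 19 CC genes (CCL16, CCL19, CCL20 and CCL21) and in 10 of 12 CXC genes. Over all protein-coding genes 8.4% had exactly 3 and 7.31% exactly 4. CCL25 and CXCL16 had 5 each, and XCL1 and CX3CL1 had 3. The medians were 3 coding exons in CC genes, 4 in CXC genes and 6 in all protein-coding genes, and all 33 members lay below the median of all genes. The single CXC gene with 3 coding exons was CXCL2. An intron splits its stop codon after 2 bases, so with the stop codon counted as coding it had 4 coding exons and 11 of 12 CXC genes did. That count was added after the values were seen.

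**Figure D2:**
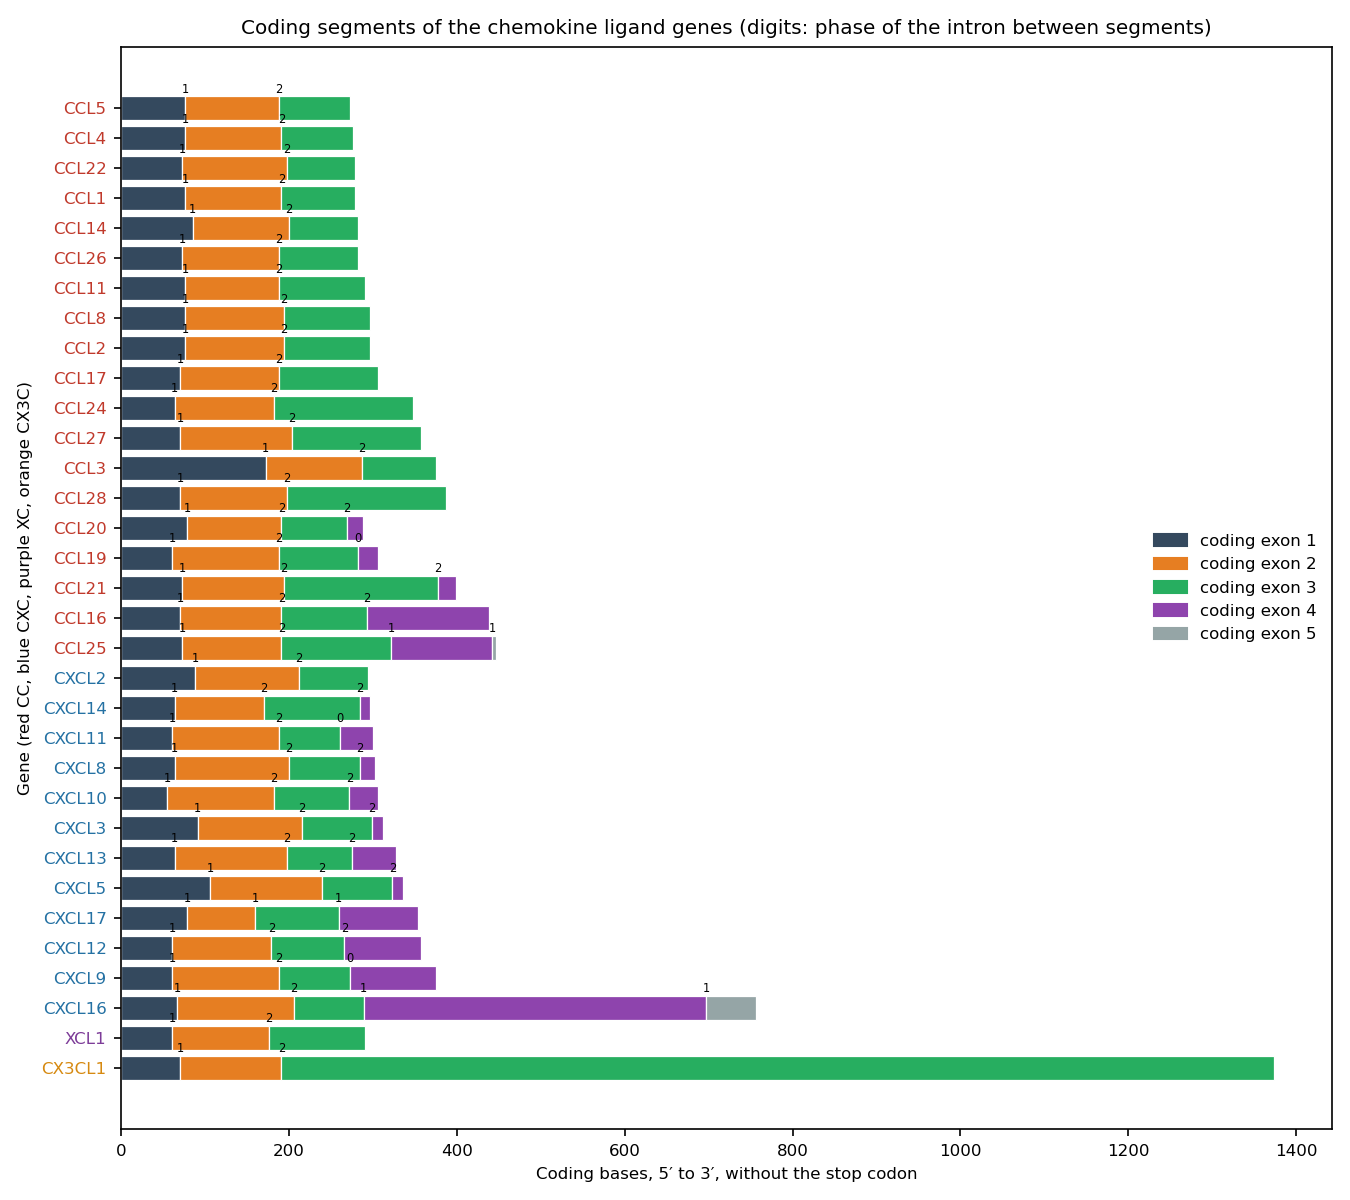
Coding bases of each gene from 5′ to 3′ without the stop codon, coloured by coding exon, with the phase of each intron printed at the border between segments; CC genes are at the top, CXC genes below them, then XCL1 and CX3CL1. The first border has phase 1 in all 33 genes and the second has phase 2 in all but CXCL17.

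The place of the introns relative to the codons was nearly uniform. Phase 1 means that an intron falls after the first base of a codon and phase 2 that it falls after the second base. The first 2 introns within the coding sequence had phase 1 and then phase 2 in 32 of 33 members, against 8.82% of the 16402 protein-coding genes with at least 2 coding introns. These were all 19 CC genes, 11 of 12 CXC genes, XCL1 and CX3CL1. CXCL17 was the exception, with phase 1 at each of its 3 introns. The third intron, where present, had phase 2 in 3 CC genes and 7 CXC genes. It had phase 0 in CCL19, CXCL9 and CXCL11, and phase 1 in CCL25, CXCL16 and CXCL17.

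The second coding segment varied least in CC genes and the segment after it varied least in CXC genes. The second held 112 to 133 bases in CC genes with a median of 118 bases, and 81 to 139 bases in CXC genes with a median of 127 bases. The 2 shortest among CXC genes were CXCL17 with 81 bases and CXCL14 with 106 bases. The first coding segment had a median of 73 bases in CC genes (61 to 172) and 64 bases in CXC genes (55 to 106). Its most frequent length was 76 bases, in 6 CC genes, namely CCL4 and CCL5 of the CCL3 cluster and all 4 genes of the CCL1 cluster. CCL3 stood apart from its neighbours with a first segment of 172 bases, while the following segments of 115 and 88 bases were as long as those of CCL1. Among the CXC genes the longest first segments were in the CXCL8 cluster, with 106 bases in CXCL5, 91 in CXCL3 and 88 in CXCL2, although CXCL8 itself had 64. The third coding segment had a median of 102 bases in CC genes (78 to 190) and 84 bases in CXC genes (73 to 114).

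The 3 genes of CXCR3 ligands differed mainly after the second coding segment. CXCL9 had coding segments of 61, 127, 85 and 102 bases, CXCL10 of 55, 127, 90 and 34 bases, and CXCL11 of 61, 127, 73 and 39 bases. The 2 genes of CCR7 ligands also diverged there. CCL19 had segments of 61, 127, 94 and 24 bases, and CCL21 of 73, 121, 183 and 22 bases.

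Introns were short in most members and long in a few. The first coding intron had a median of 1117 bases in CC genes (96 to 14584) and 549.5 bases in CXC genes (83 to 3975). The second had a median of 446 bases in CC genes (89 to 4631) and 320.5 bases in CXC genes (109 to 3625). The first was the longer in 13 of 19 CC genes and 6 of 12 CXC genes, against 61.4% of protein-coding genes with at least 2 coding introns. CCL28 had the longest coding intron of the transcripts read, at 14584 bases. CXCL2 had the shortest span of the CXC genes, at 2064 bases. Its coding introns held 83 and 113 bases, but the intron that splits its stop codon is not among them. CCL21 was the most compact CC gene by its introns, with 116, 94 and 79 bases.

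Coding sequences were short in both families. The median was 297 bases in CC genes (273 to 447) and 319.5 bases in CXC genes (294 to 756), against 1146 bases in all protein-coding genes. The ranges overlapped from 294 to 447 bases, and the difference of medians was -22.5 bases, CC minus CXC. It was -43.5 bases without the CXCL8 cluster and -13.5 bases without the CCL1 cluster. The shortest were CCL5 with 273 bases, CCL4 with 276 bases, and CCL1 and CCL22 with 279 bases each. CX3CL1 had 1374 coding bases, the most of any member and the only value above the median of all genes. Of these, 1183 lay in the last segment, after segments of 70 and 121 bases that are within the ranges of CC genes. CXCL16, the other membrane-bound ligand, followed with 756 bases, of which 408 were in coding segment 4. CCL25 had 447 bases.

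**Figure D3:**
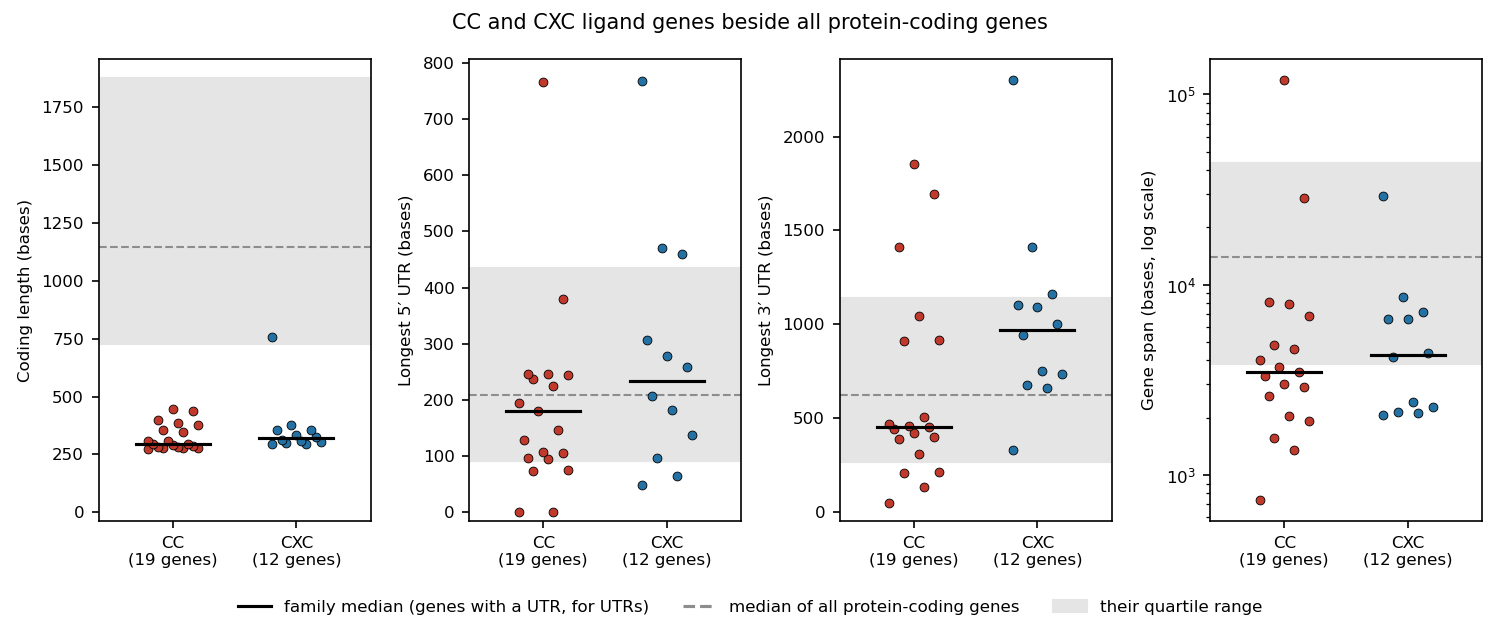
Coding length, longest 5′ UTR, longest 3′ UTR (bases) and gene span (bases, log scale) of the 19 CC genes (left, red) and 12 CXC genes (right, blue), one point per gene, with bars at the family medians, a dashed line at the median of all protein-coding genes and grey bands between their quartiles. Nearly all coding lengths lie under the band, and the 3′ UTR median is 453 bases in CC genes and 972 bases in CXC genes.

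The medians of the families lay further apart in the 3′ UTR than in the coding sequence. At least 1 annotated base of 3′ UTR was present in 33 of 33 members, against 65.5% of all protein-coding genes. The exact 95% interval of the members' share was 89.4% to 100%, covering counting error only, and 79.8% of named protein-coding genes had a 3′ UTR. Taking the longest over a gene's transcripts, the median was 453 bases in CC genes (48 to 1855) and 972 bases in CXC genes (330 to 2299), against 626 bases in all genes that have one. The difference of medians was -519 bases, CC minus CXC. It was -430.5 bases with 1 transcript per gene and -394.5 bases with the first transcript of each gene. The difference of means was -366.7 bases. Leaving out 1 cluster at a time gave differences of medians from -517 to -550 bases. A 3′ UTR longer than 626 bases was found in 6 of 19 CC genes and 11 of 12 CXC genes, against 32.7% of all protein-coding genes. That share includes genes without a 3′ UTR. Among the 14319 genes that have one the count was 7150. The ranges overlapped widely, since CCL16 and CCL22 exceeded every CXC gene but CXCL9.

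The longest 3′ UTRs were those of CXCL9 with 2299 bases, CX3CL1 with 2019 bases and CCL16 with 1855 bases. CCL22 with 1696 bases and CCL5 with 1410 bases were the other long ones among CC genes. CCL27 with 48 bases, CCL17 with 134 bases and CCL26 with 211 bases were the shortest. Genes for ligands of the same receptor differed widely from each other in some sets. For CCR4, the 3′ UTR was 134 bases in CCL17 and 1696 bases in CCL22. For CCR3, it was 211 bases in CCL26, 917 bases in CCL24 and 914 bases in CCL11. For CXCR3, it was 676 bases in CXCL10, 944 bases in CXCL11 and 2299 bases in CXCL9. The CXCR2 ligands of the CXCL8 cluster lay closer together, at 1105 bases in CXCL8, 1094 in CXCL5, 751 in CXCL2 and 663 in CXCL3. The lowest value of a CXC gene, 330 bases, was that of CXCL17.

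Relative to the rest of the transcript the 3′ UTR was long. It exceeded the coding sequence in 14 of 19 CC genes and 11 of 12 CXC genes, and in 26 of 33 members, against 16.3% of all protein-coding genes. Among the 14319 protein-coding genes that have a 3′ UTR the count was 3557. The share of the 3′ UTR in the exon bases was taken within the transcript with the longest coding sequence. Its median was 46.8% in CC genes (11.8% to 81.3%) and 59.05% in CXC genes (34.9% to 77.8%). The 3′ UTR of CXCL16 was exactly 1000 bases, a length shared by 550 protein-coding genes of the annotation. CXCL16 was also the only member with exon bases on the opposite strand of another gene, sharing 425 bases with MED11 (26619637 to 26621469, minus strand), against 6.45% of all protein-coding genes with any such bases. No member shared exon bases with a gene on its own strand. The share of all protein-coding genes with such bases was not computed, so that count is not a trait of the members. CCL27, which had the shortest 3′ UTR, ended 39 bases from IL11RA on the opposite strand.

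A 5′ UTR was annotated in 30 of 33 members, against 66.4% of all protein-coding genes. The exact 95% interval of the members' share was 75.7% to 98.1%, covering counting error only. It treats genes as independent, which genes of a cluster are not. All members are named genes by the rule, and the share was 80.6% among named protein-coding genes, which lies inside that interval. It was present in 17 of 19 CC genes and 12 of 12 CXC genes, and missing in CCL16, CCL27 and CX3CL1. Where present, the median was 181 bases in CC genes (74 to 765) and 233 bases in CXC genes (49 to 768), against 208 bases in all genes. The difference of medians, -52 bases for CC minus CXC, was within the spread of either family and became -1 base without the CXCL9 cluster and -86 bases without the CCL3 cluster. The longest were in CXCL10 with 768 bases, CCL1 with 765 bases and CXCL14 with 471 bases. The shortest were in CXCL5 with 49 bases, CXCL2 with 65 bases and CCL8 with 74 bases.

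Gene spans were short, with a median of 3482 bases in CC genes (738 to 118696) and 4256 bases in CXC genes (2064 to 29272), against 14041 bases in all protein-coding genes. The difference of medians was -774 bases, CC minus CXC. It was -3097 bases without the CXCL8 cluster and -398.5 bases without the CCL27 cluster. The means had the opposite order, with 11066 bases in CC genes and 6480 bases in CXC genes, and the long transcript of CCL3 enters the CC mean with 118.7 kb. Only CCL3, CCL28 and CXCL12 spanned more than the median of all genes.

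Most members had a single transcript, 26 of 33 against 62.3% of all protein-coding genes and 53.9% of named ones, with an exact 95% interval of 61.1% to 91.0% for the members' share. The share of all protein-coding genes lies inside that interval and the share of named ones lies below it. The interval treats genes as independent. Of the CC genes 17 of 19 had 1 transcript, against 9 of 12 CXC genes. CCL3, CCL21, CXCL10, CXCL11, XCL1 and CX3CL1 had 2 transcripts each. CXCL12 had 4, and they ended differently. Their coding lengths were 351, 279, 357 and 267 bases, with 3′ UTRs of 239, 845, 1000 and 1412 bases in the same order. The other transcript of CXCL10, of CXCL11 and of CCL21 had 3 coding exons, against 4 in the one with the longest coding sequence. In CXCL10 the 5′ UTR was 768 bases in that shorter form and 245 bases in the longer form.

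Unnamed protein-coding genes, which carry an identifier and no symbol, lay in 3 of the 7 clusters. There were 11 of them, 7 in the CCL3 cluster, 3 in the CXCL8 cluster and 1 in the CCL27 cluster, and 4 clusters held none. The CC clusters thus held 8 and the CXC clusters 3. Named genes other than members were WFDC18 in the CCL3 cluster, env in the CCL27 cluster and ART3. The unnamed genes had a median coding length of 279 bases (234 to 1086), below the 297 bases of CC genes and the 319.5 bases of CXC genes. Their coding exons numbered 1 in 1 gene, 2 in 4 genes, 3 in 4 genes, 4 in 1 gene and 6 in 1 gene. A 3′ UTR was annotated in 6 of the 11 and a 5′ UTR in 5 of the 11, whereas 33 and 30 of the 33 members had them. Members are named by the rule, so the 2 sets are not alike in this. Of all 21861 protein-coding genes 14319 had a 3′ UTR, and 13409 of these were among the 16808 named genes. For the 5′ UTR the counts were 14521 and 13552. Most of the 5053 genes without a symbol thus had neither UTR. A complete start and a complete stop codon were annotated in 9 of the 11 genes inside clusters, against 33 of 33 members.

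Of the 11 unnamed genes, 3 shared the phase 1 then phase 2 pattern of the members. Genes with 1 or 2 coding exons have fewer than 2 coding introns and cannot show it. Of all protein-coding genes with at least 2 coding introns, 8.82% had the pattern. ENSBTAG00000003289 (chromosome 19, 14387586 to 14389714, minus strand) had coding segments of 76, 115 and 88 bases, the same lengths as CCL1, and a 3′ UTR of 988 bases. ENSBTAG00000010155 (chromosome 19, 14421208 to 14427667, plus strand) had segments of 70, 115 and 91 bases and a 3′ UTR of 308 bases. ENSBTAG00000011961 (chromosome 6, 88915320 to 88925227, plus strand) began with segments of 121, 136 and 86 bases but went on to 6 coding exons and 885 coding bases.

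The other 8 did not show the pattern, and those with 1 or 2 coding exons could not. ENSBTAG00000048626 (14399906 to 14401309, plus strand) had segments of 68, 111 and 88 bases, close in length to members, with both introns in phase 2 and no UTR. ENSBTAG00000048980 (14445403 to 14450577, plus strand) had 4 coding exons and 438 coding bases, the same total as CCL16, but its first 2 phases were 1 and 1. The remaining genes of the CCL3 cluster had 2 coding exons each and lay within the long span of CCL3. They were ENSBTAG00000025260 (14290638 to 14291733, minus strand, 234 coding bases and no annotated stop codon), ENSBTAG00000046944 (14327135 to 14327967, minus strand, 261 coding bases) and ENSBTAG00000051377 (14349000 to 14352007, plus strand, 300.0 coding bases). In the CXCL8 cluster, ENSBTAG00000027534 (88887161 to 88888249, plus strand) was a single coding exon of 1086 bases. ENSBTAG00000051891 (88957113 to 88958870, plus strand) had 306 coding bases in 2 exons and no annotated start codon. In the CCL27 cluster, ENSBTAG00000049217 (76030807 to 76032127, minus strand) had 261 coding bases, and its last segment of 154 bases was as long as that of CCL27.

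**Figure D4:**
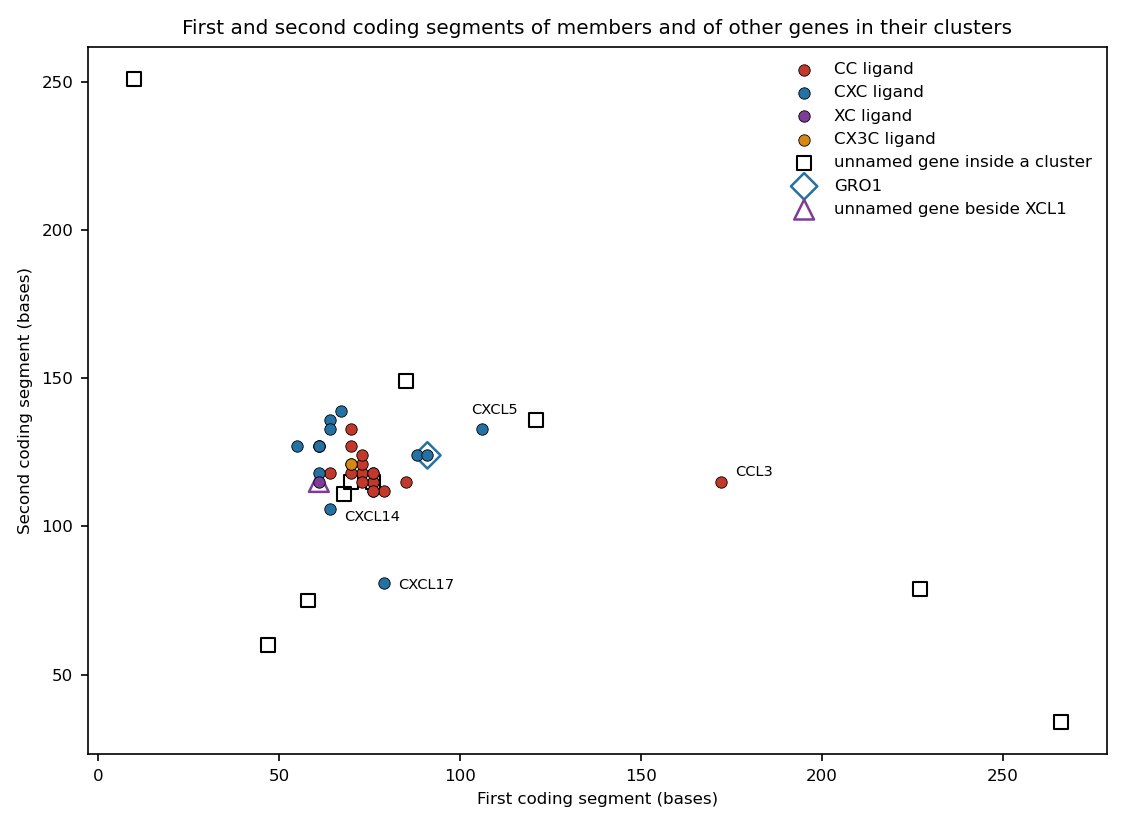
Length in bases of the second coding segment against the first, for members (filled circles, CC red, CXC blue, XCL1 purple, CX3CL1 orange) and for unnamed genes inside clusters with at least 2 coding exons (open squares), with GRO1 as a diamond and the unnamed gene beside XCL1 as a triangle. Most members crowd at 55 to 106 and 106 to 139 bases, CCL3 lies to the right at 172 bases and CXCL17 below at 81 bases, and the unnamed genes are scattered, with 3 of them in the crowd.

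The receptors of these ligands had another kind of gene model. All 23 chemokine receptor genes looked up, atypical receptors included, were found. Of these 10 had 1 coding exon and 13 had 2, and none had 3 or more. Their coding length had a median of 1086 bases (999 to 1581), against 306 bases in the 33 ligand genes. A 3′ UTR was annotated in 18 of 23 receptor genes and its median was 578.5 bases, against 676 bases in the ligand genes. The 5 receptor genes without one were XCR1, CCR3 and CCR8, each a single coding exon, and CCR2 and CCR10 with 2 coding exons.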

How the data were processed

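The authors deposited a cattle gene annotation, whose feature positions are the values used (bases, counted from 1, belonging to no sample); per the file headers it describes ARS-UCD1.2. The submitters' processing notes list Cell Ranger 3, STAR and Seurat. Use of the annotation on reindeer reads is not described in those sources, and cell counts were not analysed here, so the planned edgeR comparison of antler with back was not run. Libraries were grouped by labelled tissue.

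Coding exons, coding length without the stop codon, segments and intron phases came from the transcript with the longest coding sequence. Each UTR was the longest over transcripts, except in the share of exon bases, which used the transcript read for coding values. Members less than 500 kb apart, end to start, were chained into clusters. Every member and every other protein-coding gene in a cluster was named, with other chemokine symbols and the 3 longest and 3 shortest members per length. Members and lists were chosen with earlier results of these data known. Genes are not replicates, so families are described by counts, medians and ranges with no test. Shares have exact (Clopper-Pearson) 95% intervals, which treat genes as independent and are given as description, not as a test. Alternatives covered transcript choice, distance limit, UTR minimum, means, background and leaving out each cluster. On a simulated annotation of 500 genes in 201 clusters, the reader recovered every coding length, segment, phase, UTR and cluster. The simulation held no split stop codon, non-coding exon or nested gene, so such models, as in CXCL2, CCL25 and CCL4, were not covered by it. Python 3.11.15, NumPy 2.4.6 and SciPy 1.17.1 were used.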

Additional observations from a re-analysis of the deposited data

How the results depend on the processing

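Of 111 alternatives tried on 12 results, 101 left the value within 1.5-fold of the reported one (for shares, within the exact interval), 9 moved it further and 1 reversed it. The CC minus CXC difference of median coding length was -43.5 bases without the CXCL8 cluster and -13.5 bases without the CCL1 cluster. For the 5′ UTR it was -1 base without the CXCL9 cluster, -86 bases without the CCL3 cluster and -86 bases with genes lacking the UTR counted as 0. For gene span it was -3097 bases without the CXCL8 cluster, -398.5 bases without the CCL27 cluster and reversed to 4585 bases with means, which the 118.7 kb span of CCL3 enters. The members' share with a 3′ UTR exceeded that of all genes by 34.5 percentage points, by 40.8 points with 1 transcript per gene, and by 20.2 points over named genes only. For the 5′ UTR the excess was 24.5 points over all genes and 10.3 points over named genes. The 3′ UTR difference, the coding exon difference, the 7 clusters and the 11 unnamed genes stayed within that bound in every alternative run on them. No alternative on the clusters or the unnamed genes left out the long transcript of CCL3. Its span covers some of the unnamed genes, so the count of 11 was not tested against that model. At 100 kb CXCL3 left its cluster, giving 23 members in clusters. The share with 1 transcript has no value when 1 transcript is read. No paired analysis was possible because no result compares samples. Differences between families describe gene models, the completeness of their UTRs was not tested, and genes of a cluster are not independent.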

Other observations

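Genes just outside the clusters or under other symbols were read in the same way. GRO1, an older symbol for a neutrophil attractant of the CXC family, lay 9250 bases beyond CXCL3 on the same strand (chromosome 6, 89072611 to 89075133). Its coding segments of 91, 124, 84 and 13 bases had the same lengths as those of CXCL3, with a 3′ UTR of 721 bases against 663 bases in CXCL3. ENSBTAG00000009943 (chromosome 16, 36150525 to 36154203, plus strand) lay 9766 bases from XCL1 on the same strand. Its first coding segments of 61 and 115 bases were as long as those of XCL1, and its last held 160 bases against 115 bases in XCL1. Of the 12 other chemoattractant symbols looked up GRO1, CKLF, MIF, C5 and IL16 were found.

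A search of the whole annotation for the 3-exon form was added after the values were seen. Of 174 protein-coding genes with exactly 2 coding introns of phase 1 and then phase 2, 20 had all 3 coding segments within the ranges set by 15 of the members (61 to 88, 112 to 133 and 82 to 190 bases; CCL3 and CX3CL1 were left out of the ranges). The 15 members are among the 20 by construction. The other 5 carried no symbol, and no gene with another symbol matched. Besides ENSBTAG00000003289, ENSBTAG00000010155 and ENSBTAG00000009943 these were ENSBTAG00000054259 (chromosome 7, 20437392 to 20439636, plus strand, segments of 79, 112 and 118 bases) and ENSBTAG00000046943 (chromosome 25, 37946723 to 37948167, plus strand, segments of 61, 133 and 181 bases). The match is one of lengths and phases, with no sequence read.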
